A study of Mus musculus with 2 samples.

Results

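The genes described here are 8 genes of the lipid droplet surface and of lipolysis: Plin2, Plin3, Plin5, Pnpla2, Abhd5, G0s2, Hilpda and Mgll. They were taken by symbol, on what their proteins are known to do and not on a measured value. The choice was made with earlier results of these data known, so it was not blind to them. All 8 were found among the 55536 annotated genes. RNA came from adrenal glands of adult male mice, 8 to 10 months old, labelled as a cross of 5xFAD with Cast. There was 1 group of 2 libraries, so the data hold no control animals, treatment or contrast. 5xFAD is a mouse line with human amyloid precursor protein and presenilin transgenes that carry familial Alzheimer mutations, driven by the neuronal Thy1 promoter. CAST is a wild-derived strain, and the labels do not say whether these animals carried the transgenes. The libraries have separate biological sample entries under 1 donor entry, so the spread between them may be technical in part. Total RNA of 300 ng per library was reduced of ribosomal RNA, and ERCC RNA was added as a spike-in.

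A lipid droplet is a core of neutral lipid under a single layer of phospholipid, with coat proteins of the perilipin family on its surface. In steroid-producing cells of the adrenal cortex the core is rich in cholesteryl esters, a store of cholesterol for steroid synthesis, and triglyceride is stored as well. Adipose triglyceride lipase removes the first fatty acid of a triglyceride, hormone-sensitive lipase acts on diglycerides and cholesteryl esters, and monoglyceride lipase finishes the breakdown.

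Gene counts summed to 29204658 in replicate 1 and 26322473 in replicate 2. TPM is a transcript level per length, scaled to a fixed total per library. Genes of the annotation class misc_RNA held 43.9% and 44.5% of that total in replicates 1 and 2, which lowers the TPM of every other gene. Genes with at least 1 TPM in each library count as detected, and the 12358 detected nuclear protein-coding genes serve as the scale for levels below. The labelled tissue was checked by its markers, and 10 of 10 steroidogenic cortex genes and 8 of 8 chromaffin genes were detected. All 9 white adipocyte markers were detected as well. In bulk tissue, fewer cells of a type and less RNA per cell cannot be told apart.

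By TPM, the lipase gene Pnpla2 and its co-activator gene Abhd5 were assigned in large part to models with an extra exon and an early stop codon. The sequences at that junction are shown because the transcript results below turn on them. They come from the GENCODE M21 transcripts on mm10, read 5′ to 3′ on the plus strand. In Pnpla2-203 the first coding exon, ending at chr7:141455454-141455473, is joined to chr7:141457273-141457292, and capitals mark the next exon. In Pnpla2-201 the same bases are joined to chr7:141456568-141456593, the start of the extra exon, and capitals mark the stop codon.
Pnpla2-203: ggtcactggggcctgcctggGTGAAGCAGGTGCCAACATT
Pnpla2-201: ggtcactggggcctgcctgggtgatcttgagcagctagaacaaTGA

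In Abhd5-204 the bases at chr9:122351820-122351839 are joined to chr9:122365136-122365155, again with the next exon in capitals. In Abhd5-201 the same bases are joined to an extra exon at chr9:122363815-122363864 and, after it, to that next exon, where the frame meets the stop codon shown in capitals.
Abhd5-204: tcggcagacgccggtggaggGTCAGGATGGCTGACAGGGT
Abhd5-201: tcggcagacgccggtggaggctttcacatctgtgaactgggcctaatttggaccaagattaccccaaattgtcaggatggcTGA

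The 8 genes were all detected, as were 14173 of the 55536 annotated genes, and spanned levels from 2.16 to 93.0 TPM. Plin2 and Pnpla2 stood highest, Mgll and Plin3 followed at about equal levels, and Abhd5, G0s2, Plin5 and Hilpda came below them. The median over the 8 was 24.8 TPM in replicate 1 and 22.3 TPM in replicate 2, a mean of 23.6 ± 1.79 TPM (SD, n = 2). The median of detected protein-coding genes was 12.4 TPM. Of neighbours in this order, only Mgll and Plin3 overlapped over the libraries. In the second quantifier Plin3 stood above Mgll in both libraries, with no overlap between neighbours.

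**Figure D1:**
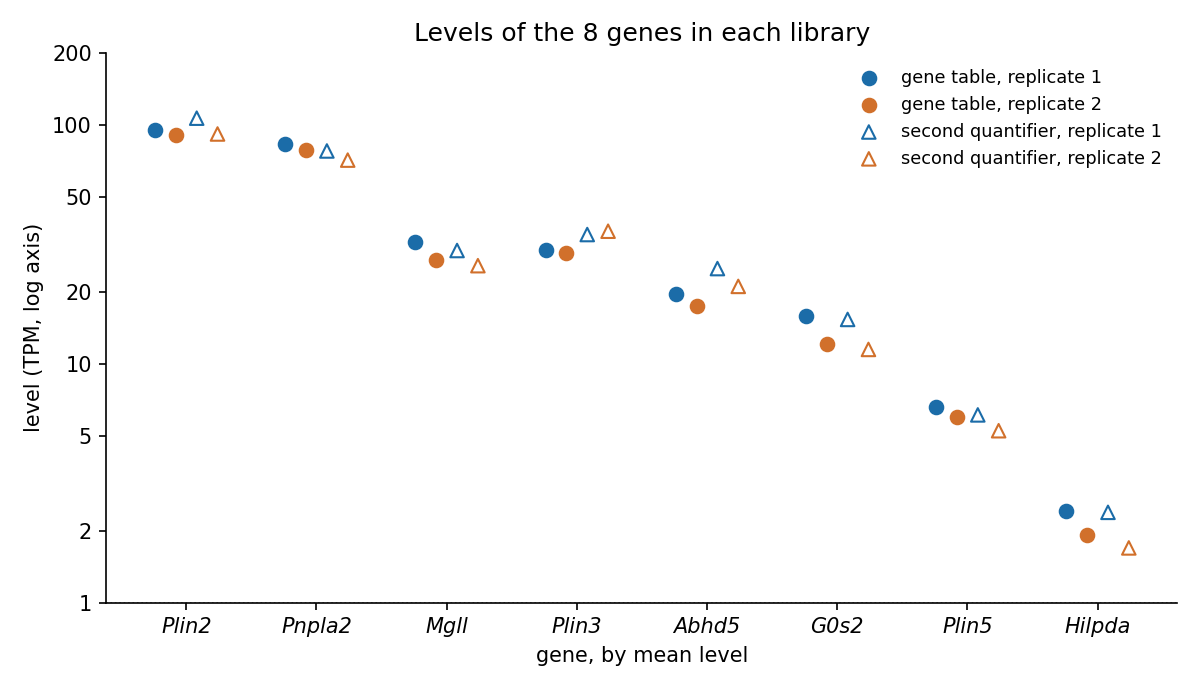
Level of each of the 8 genes in TPM on a log axis, with filled circles for the gene table and open triangles for the second quantifier, blue for replicate 1 and orange for replicate 2. Levels run from about 2 TPM for Hilpda to over 90 TPM for Plin2, and in the gene table each gene is lower in replicate 2.

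Plin2 encodes the perilipin found on droplets of most cell types, whose protein is stable only while bound to lipid. Its gene lies at chr4:86648386-86670060 on the minus strand (ENSMUSG00000028494.12). Its level was 95.3 TPM in replicate 1 and 90.8 TPM in replicate 2, a mean of 93.0 ± 3.22 TPM (SD, n = 2) from 4292 and 3590 counts. This was higher than 95.9% of detected protein-coding genes, at rank 512. The second quantifier gave 106.7 and 91.6 TPM.

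Plin3 encodes a perilipin that is soluble in the cytosol and moves onto small new droplets. Its gene is at chr17:56277476-56292873 on the minus strand (ENSMUSG00000024197.10). The level was 30.1 TPM in replicate 1 and 29.2 TPM in replicate 2, a mean of 29.6 ± 0.636 TPM (SD, n = 2), the narrowest spread relative to its mean among the 8. The second quantifier placed it higher, at 34.8 and 35.9 TPM.

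Plin5 encodes a perilipin known from oxidative tissues, where it tethers droplets to mitochondria and binds both the lipase and its co-activator. It lies at chr17:56111601-56117596 on the minus strand (ENSMUSG00000011305.11). Its level was 6.61 TPM in replicate 1 and 5.99 TPM in replicate 2, above 29.3% of detected protein-coding genes. Plin2 exceeded Plin5 by 14.8 ± 0.518 times and Plin3 by 3.14 ± 0.0411 times (ratio of TPM within a library, SD, n = 2). The second quantifier gave 17.5 and 2.81 times for these ratios.

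Across all 5 perilipin genes the transcripts divided mainly between Plin2 and Plin1, a perilipin known from adipocytes. Plin2 held 37.6% of the summed TPM in replicate 1 and 43.6% in replicate 2. Plin1 held 35.5% and 30.3%. Plin2 was thus the leading perilipin in both libraries, by a small margin in replicate 1. Plin3 held 11.8% and 14.0%, Plin4 12.5% and 9.28%, and Plin5 2.61% and 2.88%. The summed TPM of all 5 was 253.8 in replicate 1 and 208.2 in replicate 2. The sum of Plin2, Plin3 and Plin5 alone was 132 and 125.9 TPM, so most of the difference between the libraries lay in Plin1 and Plin4. Those genes are known from white fat cells, and the white adipocyte markers, of which Plin1 is itself a member, summed to 763.1 TPM in replicate 1 and 471.5 TPM in replicate 2. The part of fat cells in the perilipin shares was not tested, and bulk RNA does not show which cells the Plin1 and Plin4 transcripts came from.

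**Figure D2:**
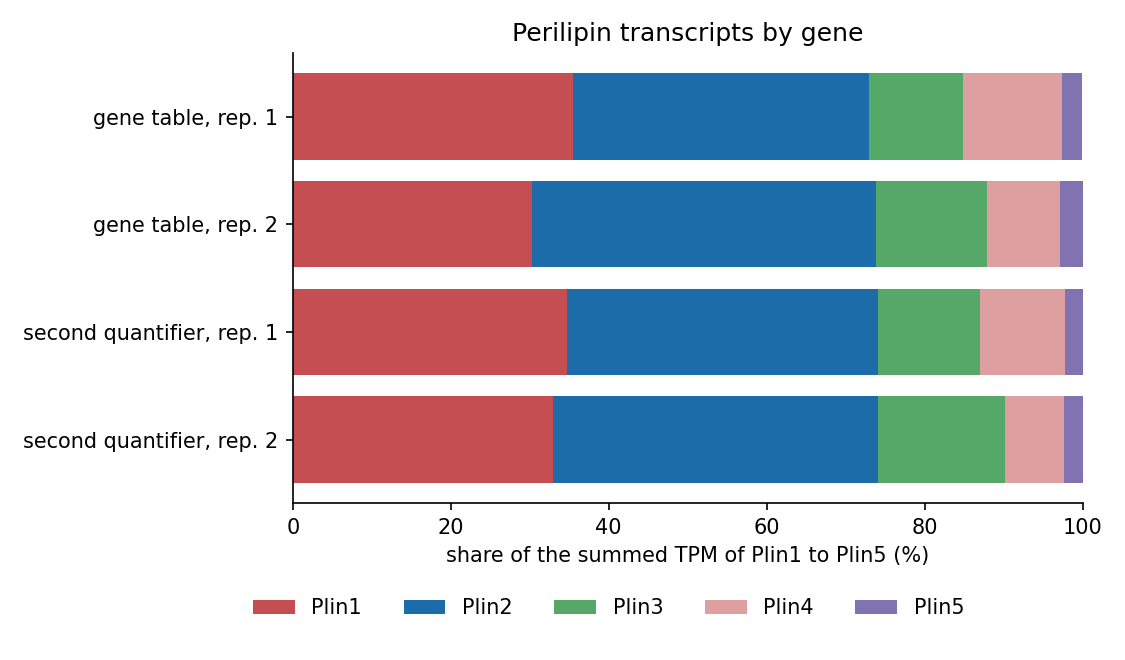
Share of the summed TPM of Plin1 to Plin5 held by each gene, in percent, with a bar for each library and quantifier. Plin2 holds the largest segment in all 4 bars, at 37.6% to 43.6% in the gene tables, and Plin5 the smallest, at 2.61% and 2.88%.

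Pnpla2 encodes adipose triglyceride lipase, the enzyme of the first step of triglyceride breakdown, at chr7:141455198-141460743 on the plus strand (ENSMUSG00000025509.15). Its level was 83.2 TPM in replicate 1 and 78.1 TPM in replicate 2, a mean of 80.7 ± 3.59 TPM (SD, n = 2) from 4226 and 3523 counts. It stood above 94.97% of detected protein-coding genes, at rank 622. The gene for hormone-sensitive lipase, Lipe, was at 0.587 ± 0.0342 times the level of Pnpla2 (SD, n = 2).

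Abhd5 encodes the protein that binds adipose triglyceride lipase and raises its activity, and that perilipins hold back in unstimulated cells. The gene is at chr9:122351608-122381524 on the plus strand (ENSMUSG00000032540.16). Its level was 19.6 TPM in replicate 1 and 17.4 TPM in replicate 2, a mean of 18.5 ± 1.58 TPM (SD, n = 2). Abhd5 had 0.236 and 0.223 times the TPM of Pnpla2 in the same libraries, a mean of 0.229 ± 0.00942 (SD, n = 2). The co-activator's transcripts were thus fewer than the lipase's in both. In the second quantifier the ratio was 0.309 ± 0.0183 (SD, n = 2), which lies outside the spread of the first.

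G0s2 encodes a small protein that binds adipose triglyceride lipase and inhibits it. The gene is at chr1:193272161-193273217 on the minus strand (ENSMUSG00000009633.3). Its level was 15.9 TPM in replicate 1 and 12.1 TPM in replicate 2, a mean of 14.0 ± 2.67 TPM (SD, n = 2) from 350 and 238 counts. This was the widest spread relative to the mean among the 8. G0s2 had 0.191 and 0.155 times the TPM of Pnpla2, a mean of 0.173 ± 0.0254 (SD, n = 2), and the second quantifier gave 0.179. Against the whole-gene level of Abhd5, the inhibitor's TPM was 0.807 times in replicate 1 and 0.694 times in replicate 2. The second quantifier gave 0.6125 and 0.545 times. Coding models, described below, held only 41.0% and 44.3% of the Abhd5 level, but all of the G0s2 level. The main coding model of Abhd5, Abhd5-204, had 7.69 and 7.33 TPM, below G0s2 in both libraries.

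Hilpda encodes another small inhibitor of the same lipase, known as a gene induced by low oxygen and by fatty acids. It is at chr6:29272488-29275446 on the plus strand (ENSMUSG00000043421.8). Its level was 2.41 TPM in replicate 1 and 1.91 TPM in replicate 2, from 61 and 43 counts, the fewest of the 8. The deposited TPM interval within each library ran from 1.90 to 3.17 and from 1.41 to 2.57, and these ranges overlap. Hilpda stood above 8.27% of detected protein-coding genes. Of the pair of inhibitors, G0s2 was the higher by 6.45 ± 0.182 times (SD, n = 2).

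Mgll encodes monoglyceride lipase, which releases the last fatty acid of a glyceride and also breaks down an endocannabinoid. The gene is at chr6:88724412-88828360 on the plus strand (ENSMUSG00000033174.17). Its level was 32.2 TPM in replicate 1 and 27.2 TPM in replicate 2, a mean of 29.7 ± 3.51 TPM (SD, n = 2). It had 0.387 and 0.349 times the TPM of Pnpla2, and 0.633 and 0.619 times that of Lipe. Along the order of the enzymes in the pathway, whole-gene levels thus stepped down from Pnpla2 to Lipe to Mgll in both libraries. Models marked for decay, described below, held 60.8% and 59.0% of the Pnpla2 level in replicates 1 and 2. Coding models held 36.6% and 38.7% of it. Whole-gene Lipe, at 0.61 and 0.56 times the Pnpla2 level, stood above that coding part in both libraries. Whole-gene Mgll was above it in replicate 1 and below it in replicate 2. The step down from Pnpla2 to Lipe thus held for whole-gene levels, and not for coding Pnpla2 models against whole-gene Lipe. Coding models of Lipe were not examined, so the order for coding models alone is not given. Abhd6, which also hydrolyses monoglycerides, had 0.878 times the TPM of Mgll in replicate 1 and 1.12 times in replicate 2.

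The annotation holds 40 transcripts of the 8 genes, and 19 reached 10% of their gene in either quantifier in either library. Pnpla2 was assigned mainly to Pnpla2-201, a model marked for nonsense-mediated decay, the pathway that destroys RNA whose stop codon lies well before the last exon junction. Pnpla2-201 held 54.4% and 54.5% of the gene's TPM in replicates 1 and 2, at 45.3 and 42.6 TPM. The second quantifier gave 48.6% and 48.0%. The extra exon shown above, 82 bases at chr7:141456568-141456649, is in Pnpla2-201 and in Pnpla2-204, the other decay model, and in none of the gene's other 5 models. In Pnpla2-201 the stop codon lies 1050 bases before the last junction. Its open frame is 210 bases, against 1458 in Pnpla2-203. Among the coding models, Pnpla2-202 held 19.0% and 19.1%, and Pnpla2-206 held 11.8% and 13.4%. Pnpla2-203, with the longest coding frame, held 5.78% and 6.16%.

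Abhd5 was divided between Abhd5-201, also marked for decay, and the coding Abhd5-204. Abhd5-201 held 44.9% in replicate 1 and 39.0% in replicate 2, and Abhd5-204 held 39.2% and 42.1%. Their order by TPM differed between the libraries, so neither led by that measure. In the second quantifier Abhd5-201 led by TPM in both, with 34.3% and 36.9% against 26.1% and 24.3%. Abhd5-204 is the longer model, at 3157 bases against 1386, and took more counts in both quantifiers. It held 60.3% and 62.8% of the gene's expected counts in replicates 1 and 2, against 29.1% and 24.4% for Abhd5-201. The extra exon of Abhd5-201 has 50 bases, and the stop codon shown above lies 899 bases before the last junction. A further decay model without that exon, Abhd5-205, held 1.49% and 8.45% in the gene pipeline and 14.7% and 22.0% in the second quantifier. Abhd5-206, a model with no coding frame, held 4.84% and 1.84%, against 18.4% and 8.19% in the second quantifier.

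Summed over their models by TPM, coding transcripts made up 36.6% of Pnpla2 in replicate 1 and 38.7% in replicate 2, and 41.0% and 44.3% of Abhd5. The second quantifier gave 37.7% and 41.8% for Pnpla2 but only 26.1% and 27.9% for Abhd5. Decay models made up 60.8% and 59.0% of Pnpla2, and 46.3% and 47.4% of Abhd5. In the second quantifier these were 58.1% and 54.5% of Pnpla2, and 49.1% and 58.8% of Abhd5. For scale, 6470 protein-coding genes had at least 10 TPM and 2 or more transcripts, and their median coding share was 82.3% and 82.4%. Of those genes, 0.881% had over 50% of TPM in decay models in both libraries, as Pnpla2 did in both quantifiers. Over 30% was reached by 2.57%, as both Pnpla2 and Abhd5 did. The 6470 include genes with no decay model, which cannot pass either limit, and their shares are from the gene pipeline only. The other 6 genes were almost wholly coding, at 93.4% for Plin2, 93.1% for Mgll and 100% for Plin3, Plin5, G0s2 and Hilpda (means over 2 libraries). Every annotated model of Plin3, Plin5, G0s2 and Hilpda is coding, so their 100% was fixed by the annotation. Plin2 has models without a coding frame but none marked for decay.

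These shares rest on the transcript models. Pnpla2-203 ends 651 bases beyond Pnpla2-201, and Pnpla2-202 lacks an exon of 168 bases, so the models with an annotated stop codon, that exon and the nearer end are Pnpla2-201 and Pnpla2-204, both marked for decay. Abhd5-204 ends 1699 bases beyond Abhd5-201. Whether reads covered the extra exons was not analysed here.

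**Figure D3:**
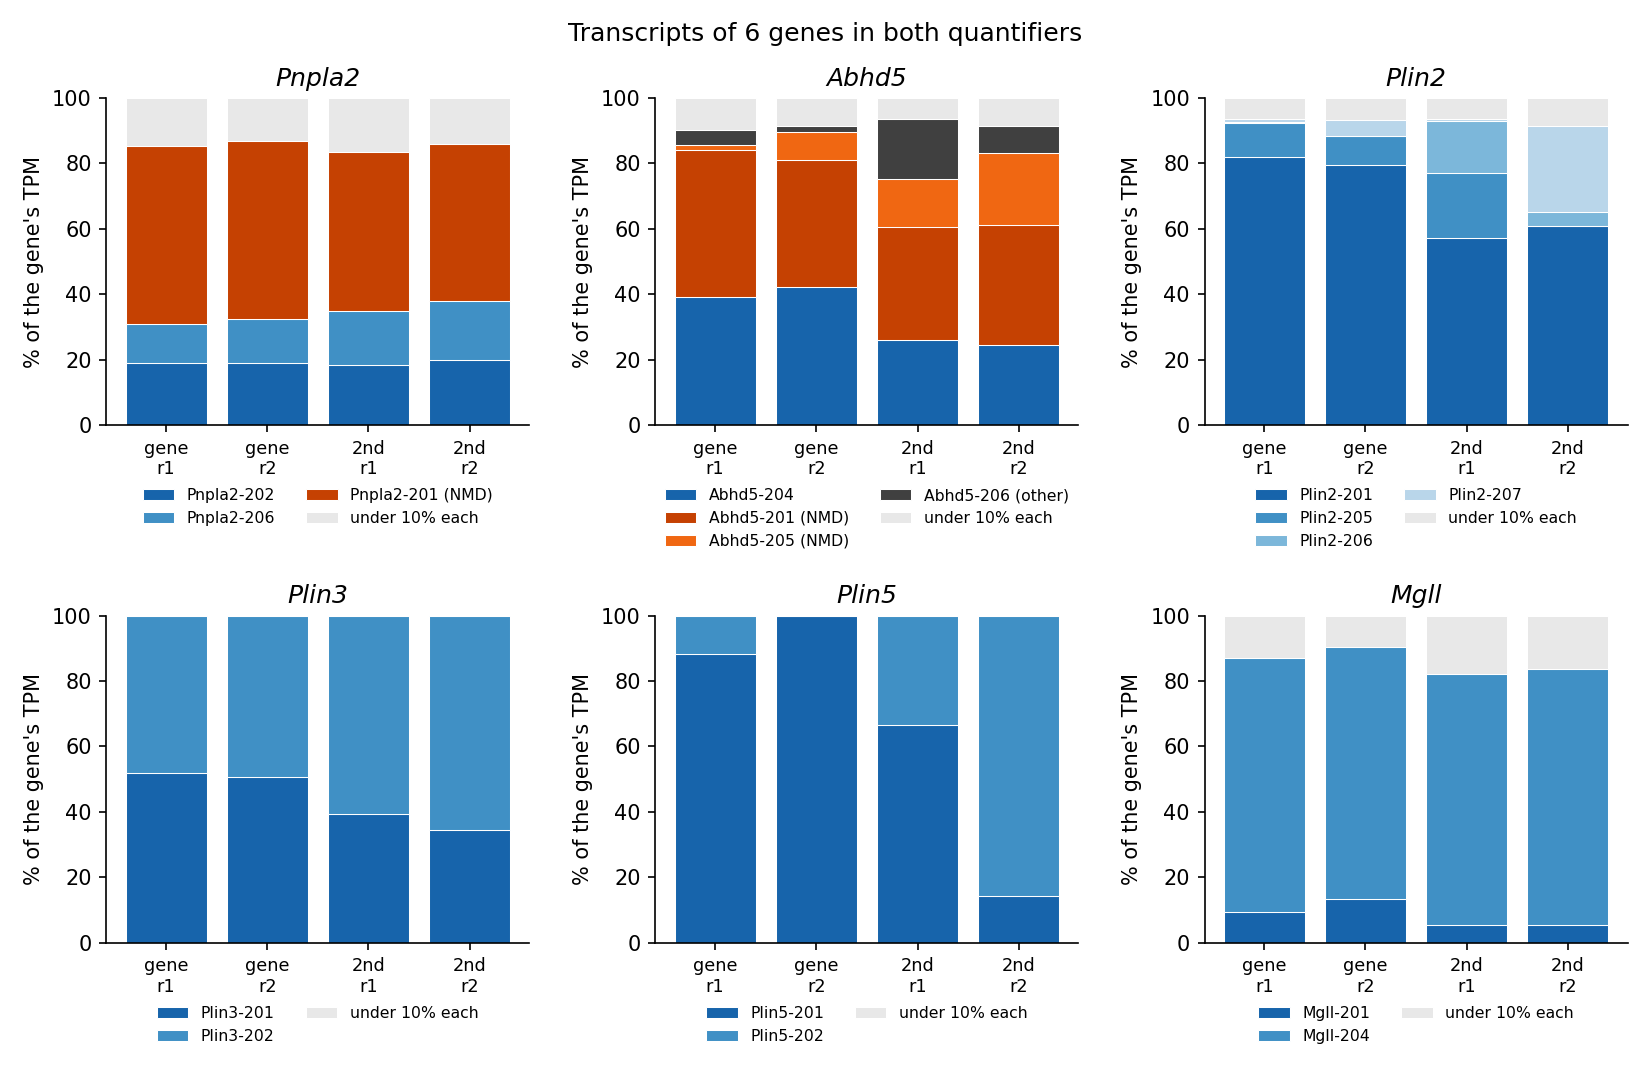
Percent of each gene's TPM held by its transcripts, for 6 genes, with bars for the gene pipeline (gene) and the second quantifier (2nd) in replicates 1 and 2. Coding models are blue, models marked for nonsense-mediated decay (NMD) orange, other models dark grey and transcripts under 10% pale grey, and Pnpla2-201 takes 48.0% to 54.5% of Pnpla2 in all 4 bars.

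Among the coat genes, Plin2-201 led with 81.9% and 79.4%, and the second quantifier gave it 57.0% and 60.8%. The rest of Plin2 went to short models in amounts that differed between libraries in the second quantifier. There Plin2-205 had 20.04% in replicate 1 and none in replicate 2, Plin2-206 had 16.0% and 4.28%, and Plin2-207 had 0.621% and 26.4%. In the gene pipeline Plin2-206 held 0.54% and 0%. Plin2-205 shares an unbroken run of 617 of its 683 bases with Plin2-201. Plin3 split about evenly by TPM in the gene pipeline, with 52.0% and 50.7% for Plin3-201, while the second quantifier gave it 39.5% and 34.5% and let Plin3-202 lead in both libraries. Because Plin3-202 is only 562 bases long, against 3645, Plin3-201 still took 89.3% and 88.8% of the gene's expected counts. Plin5-201 had 88.3% and 100% in the gene pipeline but 66.7% and 14.3% in the second quantifier. The pair of Plin5 models has the same coding exons and a shared run of 1887 of 1986 bases, so which of them was present is not resolved. Mgll-204 led with 77.7% and 77.2%, and in the second quantifier with 76.7% and 78.3%. G0s2 has a single model. Hilpda-201 held 100% of its gene in both libraries in the gene pipeline, and 96.1% and 100% in the second quantifier.

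Between the libraries, all 8 genes were lower in replicate 2, against 51.4% of the 16383 genes compared. None of the 8 passed 1.5-fold, which 6.71% of all genes passed either way and 4.03% passed lower in replicate 2. Beside a background of that size, a count of 0 of 8 says nothing particular of these genes. Ratios of replicate 2 to replicate 1 used counts scaled by TMM totals, with a standard error (SE) that covers Poisson counting only. With 1 library on each side there is no test, and 1.5-fold, 0.585 on the log2 scale, is a rule of size. G0s2 differed most, with a log2 ratio of -0.41 ± 0.12 (counting SE), a size larger than that of 86.8% of the genes compared. Hilpda followed at -0.36 ± 0.29, where the 95% counting interval of -0.92 to 0.20 includes 0. Mgll was at -0.21 ± 0.04, Plin5 at -0.16 ± 0.11 and Abhd5 at -0.15 ± 0.06. Plin2 and Pnpla2 both had -0.12 ± 0.03, and Plin3 differed least, at -0.09 ± 0.05.

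The counting interval excluded 0 for 5 of the 8 genes, all lower, namely Plin2, Pnpla2, Mgll, Abhd5 and G0s2. Over all genes compared, 16.2% were lower by that measure and 30.6% differed either way. The median log2 ratio of the 8 was -0.16 and that of all genes -0.006. Scaling by the spike-ins put the median of all genes at -0.10 and that of the 8 at -0.25. All 8 were lower under that scaling too, as were 72.4% of all genes compared. In the second quantifier's TPM, Plin3 was the exception, at 34.8 and 35.9, although its scaled counts gave -0.08.

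Most markers of fat cells moved in the same direction, with medians further from 0 than that of the 8 genes. All 9 white adipocyte markers were lower in replicate 2, 6 of them past 1.5-fold, with a median log2 ratio of -0.70. Cfd was the nearest to 0, at -0.12 ± 0.07 (counting SE). Leptin (Lep) had 31.3 TPM in replicate 1 and 11.9 TPM in replicate 2, a log2 ratio of -1.48 ± 0.06 (counting SE). Adiponectin (Adipoq) had 65.0 and 36.1 TPM, and the fatty acid carrier Fabp4 had 223.8 and 127.7 TPM. Brown adipocyte markers were lower for 5 of 6 with enough counts, with a median of -0.50, and Ucp1, the brown fat uncoupler, was at 3.91 and 1.83 TPM. Cox8b, the highest of that list, was not lower, at 23.8 and 25.7 TPM (log2 ratio 0.092 ± 0.155). The list's summed TPM was 56.13 and 49.65. Of 8 macrophage markers 5 were lower, 2 past the fold, and 3 were higher, with a median of -0.35. Their summed TPM was 273.1 and 192.3, of which Lyz2 alone held 146 and 81.4. Cortex markers were higher in replicate 2 for 8 of 10, with a median of 0.11 (0.02 under spike-in totals), and chromaffin markers for 8 of 8, with a median of 0.17 (0.08 under spike-in totals). Endothelial markers had a median of -0.02, which was 0.03 as a ratio of TPM. G0s2, Pnpla2, Mgll and Abhd5 are known to be active in adipocytes as well, and the part of these markers in the ratios of the 8 genes was not tested.

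**Figure D4:**
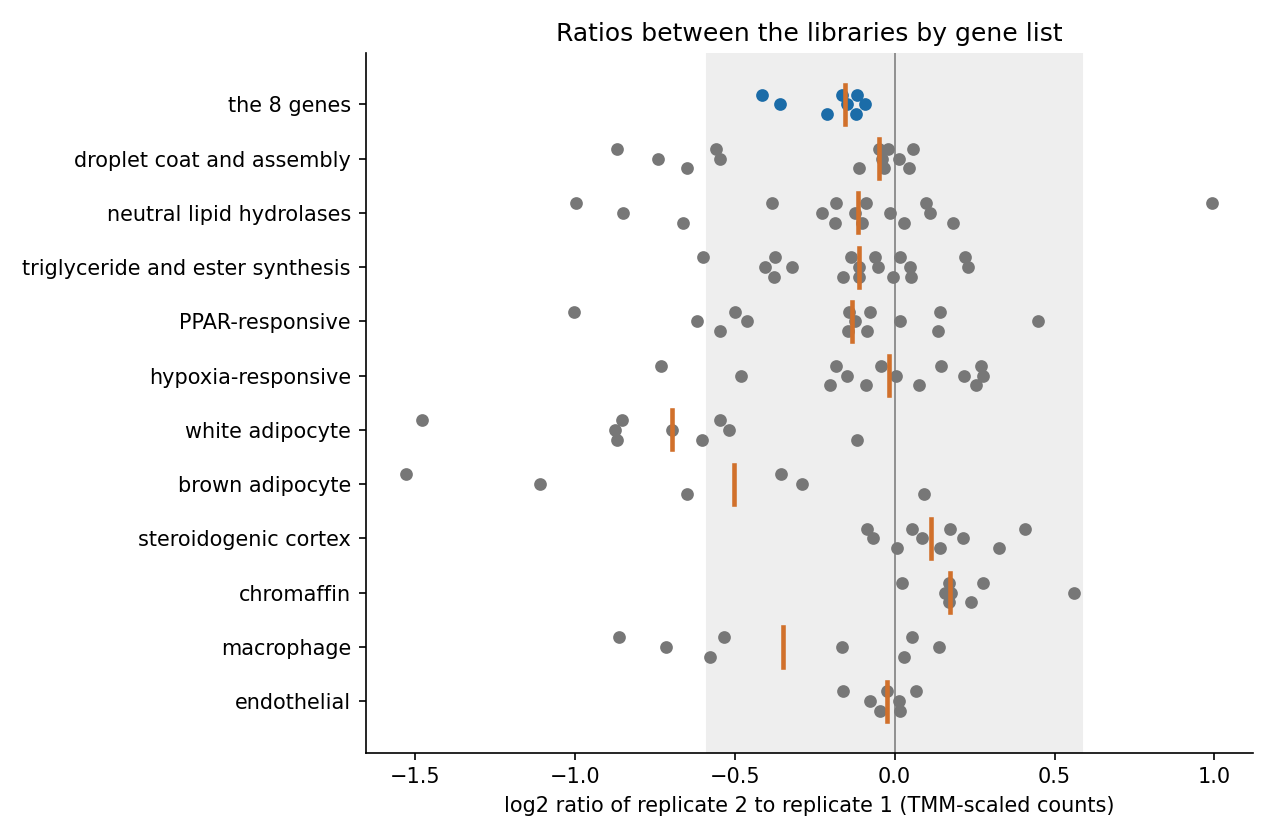
Log2 ratio of replicate 2 to replicate 1 from TMM-scaled counts, with a point per gene and an orange bar for the median of each list; the grey band marks ratios within 1.5-fold. The 8 genes all lie between 0 and the band's lower edge, with a median of -0.16, and the white adipocyte markers have a median of -0.70.

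Other genes of droplet coating and assembly numbered 16, of which 13 were detected. Of the 13 with enough counts for a ratio (a mean of at least 20), 10 were lower in replicate 2, and the list's median log2 ratio was -0.05. The highest were Plin1, with 90.01 and 63.0 TPM in replicates 1 and 2, Aup1 with 67.3 and 73.7, Rab18 with 66.7 and 70.5, and Cidec with 60.2 and 34.9. Rab18 is a droplet-bound small GTPase, and Cidec fuses droplets in fat cells. Plin2 was therefore above all 16 by mean TPM. Cidec at -0.87 ± 0.05, Plin4 at -0.74 ± 0.03 and Cidea were past 1.5-fold lower, and all 3 are known from fat cells. Plin1 and Cidec are also on the white adipocyte list, and Cidea is on the brown. Fitm1, Hsd17b13 and Cideb were not detected.

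Of 21 other neutral lipid hydrolases, 20 matched and 15 were detected. Of 16 with a ratio, 11 were lower in replicate 2, with a median of -0.11. The highest were Abhd4 (307.4 and 310.5 TPM), which acts on acyl phospholipids, lipoprotein lipase Lpl (82.6 and 48.2), Nceh1 (49.8 and 51.5), which hydrolyses cholesteryl esters, and Lipe (50.9 and 44.0). Of these, only Abhd4 had a higher mean TPM than Pnpla2. Past 1.5-fold lower were Pnpla3 at -0.997 ± 0.17, a close relative of Pnpla2, Lpl at -0.85 ± 0.03 and the carboxylesterase Ces1d at -0.66 ± 0.07. Endothelial lipase, Lipg, was past the fold in the other direction, at 0.99 ± 0.31, from 33 and 60 counts at 0.33 and 0.68 TPM. With levels under 1 TPM in either library, Lipg, Pnpla1, Pnpla5, Lipc and Aadac were not called detected.

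Of 22 genes of triglyceride and ester synthesis, 21 matched and 17 were detected, and 12 of 17 with a ratio were lower, with a median of -0.11. Soat1, the enzyme that makes cholesteryl esters, stood far above the rest with 457.8 and 448.9 TPM. It exceeded the triglyceride-forming Dgat1 by 22.4 and 25.8 times, and Dgat2 by 10.2 and 15.4 times, in replicates 1 and 2. Soat1 also stood above Plin2 and Pnpla2. Next came Acsl4 (104.7 and 101.7 TPM), Agpat3 (74.0 and 71.8) and Acsl1 (54.5 and 48.5). Only Dgat2 passed 1.5-fold, at -0.60 ± 0.05. Mogat1, Gpat2, Soat2 and Mogat2 were not detected.

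Plin2, Plin5, Pnpla2, G0s2 and Hilpda are known targets of PPAR nuclear receptors, and Hilpda of the hypoxia-inducible factor. Of 16 other PPAR-responsive genes 13 were detected, and 10 of 14 with a ratio were lower, with a median of -0.13. The highest were Acadm (144.8 and 130.6 TPM), Ucp2 (102.4 and 108.8), Cpt1a (93.7 and 96.8) and Acadl (77.9 and 76.2). Pdk4 at -1.001 ± 0.13 and Angptl4 at -0.62 ± 0.08 were past 1.5-fold lower, while Creb3l3, Cyp4a10 and Cyp4a14 were not detected. Of 16 hypoxia-responsive genes 13 were detected, and 7 of 14 with a ratio were lower, with a median of -0.02, which was 0.02 in the second quantifier and 0.03 as a ratio of TPM. Vegfa had 245.4 and 252.8 TPM, Pgk1 80.2 and 73.4, Ldha 47.4 and 41.9, and Bnip3 35.4 and 41.8. Hilpda, at 2.16 TPM, was thus far below these 4. Pfkfb3 was past the fold, at -0.73 ± 0.06, and Egln3, Ankrd37 and Car9 were not detected at 1 TPM in both libraries.

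Some members share their locus with other genes. Abhd5 shares 950 of its 5956 exon bases with the antisense gene A730085K08Rik, which had 0 counts in both libraries, and Mgll shares 167 of 5077 with Gm26588, which had 3 and 4. G0s2 lies within Lamb3 on the opposite strand and shares no exon base with it, and Lamb3 had 0.44 and 0.14 TPM. The libraries are stranded, and the strand setting of the counting is not given in the sources used here.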

How the data were processed

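Per the labels, ribosomal RNA was reduced and stranded libraries were made from mouse adrenal RNA with ERCC spike-ins. The authors deposited expected counts, TPM and FPKM per gene, and the library notes name mm10 and GENCODE M21. The deposited transcript tables give each transcript's percent of its gene, and the deposited bounds of a TPM interval are a signal in TPM whose level is not stated. A further deposited transcript table, the second quantifier, gives estimated counts and TPM made directly from reads. Names of the aligner and quantifiers: not given in the sources used here.

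Expected counts were rounded. Left out of library sizes were phiX, the spike-ins (0.469% and 0.504% of counts in replicates 1 and 2) and 26248 entries with numeric identifiers (1.5e-05% and 2.1e-05%). Ratios used edgeR 4.0.16 TMM totals in R 4.3.3 with a prior count of 0.5, for genes whose mean count reached 20. DESeq2 1.42.0 size factors were an alternative. On simulated counts, 94% of 100 genes changed by 1 on the log2 scale passed 1.5-fold, and 3.02% of 16183 unchanged genes passed it. The simulation gave every gene the same spread beyond counting, set by hand and not estimated from these libraries, where 6.71% passed. These percents check the procedure and are not error rates of the comparison. Counting intervals treat reads as independent molecules. Sequences and models came from the GENCODE M21 transcripts. Python 3.11.15 and pandas 2.3.3 handled the tables.

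The 8 genes and the 11 lists were chosen with earlier results of these data known. Named genes are the 8, and from each list of pathway genes the 4 highest by mean TPM, up to 3 past 1.5-fold whose mean count reached 100, and undetected genes. Cidea and the ratio of Lipg, outside this rule for their mean counts, and the markers named were chosen after their values were seen. In the lists, 136 of 138 entries matched a symbol.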

Additional observations from a re-analysis of the deposited data

How the results depend on the processing

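The direction of the ratio between libraries was the same for all 8 genes under every setting tried, with 0 past 1.5-fold (7 of 7 genes at a mean count of at least 100). These settings were DESeq2 size factors, totals without TMM, spike-in totals, no count filter, TPM with a pseudocount of 0.1 or 1, and the second quantifier's counts. The share of all genes compared that were lower ran from 47.2% for the TPM ratios to 72.4% under spike-in totals. Levels depended more on the tables. The median TPM of the 8 genes was 23.6, and became 25.4 with the second quantifier and 70.4 as TPM over nuclear protein-coding genes. The Abhd5 to Pnpla2 ratio of 0.229 became 0.309 with the second quantifier and 0.262 from counts, which are not per length. From counts, the G0s2 to Pnpla2 ratio of 0.173 became 0.0752 and the Plin2 share of the perilipins 30.5%. The median percent of a gene held by its leading transcript, 79.1%, became 58.1% with the second quantifier. Of the 10 values that another quantifier, unit or scale gave for these levels and shares, 7 lay more than 1 SD over the libraries from the main value, all printed here. So did 6 of 16 such levels of single genes. The median log2 ratio of the 8 genes ran from -0.25 to -0.14 over 8 settings. Of 40 alternative ratios of single genes, 3 lay outside the 95% counting interval of the main ratio, all under spike-in totals: Plin2 at -0.21, Pnpla2 at -0.22 and Mgll at -0.31. With 2 libraries, leaving 1 out gives the value of the other and checks nothing further. No paired analysis was possible because there is 1 group. The lowest depth was that of Hilpda, with 61 and 43 counts.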
